A study of Mus musculus with 6 samples.

Results

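The cubilin, amnionless and megalin uptake system was examined in mouse induced pluripotent stem cells (iPSCs), cells reprogrammed to a state like that of embryonic stem cells. The 6 genes were taken by symbol from the deposited count table: the receptors Cubn (cubilin) and Lrp2 (megalin), the cubilin partner Amn (amnionless), the receptor chaperone Lrpap1, the clathrin adaptor Dab2 and the motor Myo6. All 6 were among the 24421 gene entries and all 6 passed the filter on low counts, which left 14778 genes. Bulk RNA sequencing compared 3 libraries labelled SRF KO, from iPSCs with both alleles of the serum response factor gene deleted (SRFΔ/Δ), with 3 libraries labelled WT, from iPSCs that carry the undeleted conditional allele (SRFf/f). Both were grown in medium with serum. The labels give no strain, time after deletion or number of clones, and do not say whether feeder cells were present or whether the replicates are separate cultures, so that p-values measure only the spread between these libraries.

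Cubilin is a very large extracellular receptor with no membrane anchor of its own, and amnionless gives it that anchor and carries it to the cell surface. Megalin is a giant member of the lipoprotein receptor family that internalizes with cubilin and binds many of the same vitamin carriers, lipoproteins and hormones. Lrpap1 keeps such receptors free of ligand while they fold, Dab2 links their tails to clathrin, and Myo6 moves the coated vesicles inward along actin. The system is known from the proximal tubule of the kidney, the ileum and the visceral endoderm, the outer layer of the early rodent embryo that takes up maternal nutrients.

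The genes lie on 5 chromosomes of the mouse build GRCm38 (mm10) in the GENCODE M21 annotation. Cubn (ENSMUSG00000026726.10) spans chr2:13276338-13491813 on the minus strand, with 67 exons in its longest coding transcript of 11262 bases. Lrp2 (ENSMUSG00000027070.14) is on the same strand of the same chromosome at chr2:69424340-69586065, 55.9 Mb away, with 79 exons and 15460 bases. Amn (ENSMUSG00000021278.7) is the smallest, at chr12:111271095-111276426 on the plus strand with 12 exons and 1701 bases. Dab2 (ENSMUSG00000022150.16) is at chr15:6299788-6440712 on the plus strand. Lrpap1 (ENSMUSG00000029103.16) is at chr5:35091501-35105766 on the minus strand, and Myo6 (ENSMUSG00000033577.18) at chr9:80165031-80311729 on the plus strand. In GENCODE, noncoding genes and a pseudogene on the opposite strand overlap Cubn, Dab2 and Myo6. None of them is an entry of the table, and since the labels do not say whether counting used strand, their reads cannot be told apart from those of the 3 genes.

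For the 4 genes with the largest rises, which differed in size, the bases just upstream of the RefSeq starts (GRCm38.p6) are shown, 5′ to 3′ on the strand of the gene and without annotated exon sequence. The windows are chr2:13491877-13492126 (Cubn), chr2:69586066-69586279 (Lrp2), chr12:111270846-111271094 (Amn) and chr15:6299539-6299787 (the first of 2 starts of Dab2). Capitals mark matches to GGGCGG, to CACGTG or to the GATA consensus on either strand.
Cubn: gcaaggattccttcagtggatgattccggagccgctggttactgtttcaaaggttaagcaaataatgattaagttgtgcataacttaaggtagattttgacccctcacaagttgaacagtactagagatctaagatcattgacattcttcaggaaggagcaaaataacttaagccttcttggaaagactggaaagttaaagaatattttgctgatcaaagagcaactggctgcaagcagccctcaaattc
Lrp2: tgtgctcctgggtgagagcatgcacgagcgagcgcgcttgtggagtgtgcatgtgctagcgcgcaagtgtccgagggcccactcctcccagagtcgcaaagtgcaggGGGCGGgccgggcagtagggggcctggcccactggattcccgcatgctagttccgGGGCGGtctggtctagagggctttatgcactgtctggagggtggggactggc
Amn: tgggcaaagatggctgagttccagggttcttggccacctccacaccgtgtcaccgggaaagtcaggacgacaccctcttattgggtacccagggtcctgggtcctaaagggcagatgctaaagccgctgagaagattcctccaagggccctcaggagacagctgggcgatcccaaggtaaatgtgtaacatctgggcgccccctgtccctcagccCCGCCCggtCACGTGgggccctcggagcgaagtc
Dab2: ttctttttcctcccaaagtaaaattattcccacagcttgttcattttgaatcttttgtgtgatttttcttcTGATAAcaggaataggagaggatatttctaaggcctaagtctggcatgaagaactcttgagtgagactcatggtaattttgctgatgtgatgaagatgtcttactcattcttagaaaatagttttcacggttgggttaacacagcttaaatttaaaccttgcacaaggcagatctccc

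Of the 6 genes, all 6 had an entry in the RefSeq promoter table. In the full windows of 250 bases, 7 motifs were searched on both strands, none of which is contained in another. The first was the CArG box, the binding sequence of SRF, in its strict form of CC, 6 bases of A or T, and GG. The second was the consensus of GATA factors, which is GATA with A or T before it and A or G after it. The others were GTTAAT as part of HNF1 sites, TGTTTAC as 1 form of forkhead sites, ACAAAG as 1 form of SOX sites, CACGTG for E-box factors and GGGCGG for Sp1 and its relatives. The window of Cubn held no match to any of the 7. No window of the 6 genes held a CArG box of this form, which 1.47% of 32817 mouse promoter windows of that length hold. Variants of the box and sites outside the windows were not searched. The GATA consensus, in 26.6% of all windows, matched only the window of the first Dab2 start, as TGATAA, whose first base is 179 bases before the start. A first search for AGATAA alone, which is in 9.99% of all windows, had found none in the windows of the 6 genes. TGTTTAC and ACAAAG were without a match, and they are in 3.16% and 16.5% of all windows. GTTAAT, in 6.44% of all windows, matched only the window of the second Dab2 start. GGGCGG, in 32.7% of all windows, matched in Lrp2, Amn, Lrpap1 and Myo6, the last with 7 matches. CACGTG, in 6.02% of all windows, matched in Amn alone, 26 bases before the start. The GC content was 39.6% for Cubn and 36.8% for the first Dab2 start. It was between 60.0% and 67.6% for the other windows, the second Dab2 start included, beside a median of 52.4% over all windows. These matches describe letters in a window and do not show binding.

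Libraries held between 26321602 and 36680156 counts. Srf itself had 84 to 131 counts in the SRF KO libraries and 765 to 1326 in the WT libraries, in the direction of the labels. WT replicate 2 stood apart from the other WT libraries on the second principal component, which held 10.4% of the variance. Of 12 pluripotency markers, which mark the labelled cell type, all 12 were tested, and 6 were lower in SRF KO. Among these, Nanog, Tfcp2l1 and Klf4 fell by 0.79, 0.70 and 0.52 on the log2 scale. The share called was 58.3%, beside 42.4% of all genes, and 1 marker, Zfp42, was higher, by 0.17. Its call was lost when SRF KO replicate 1 (0.18) or 2 (0.14), or WT replicate 1 (0.16) or 3 (0.14), was left out. Their summed level was 6026 to 6181 CPM in SRF KO, against 7393 to 7859 CPM in WT. CPM are read counts put on a common library scale, here with TMM, the trimmed mean of M values. Fibroblast markers, which feeder cells would carry, summed to between 850.2 and 1012 CPM in SRF KO and between 419 and 472 CPM in WT. Of 12, 11 were called higher, beside 21.2% of all genes. The part of such cells in the results below was not tested.

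All 6 genes of the uptake system were higher in SRF KO. Each passed the threshold of 0.05 on the p of edgeR's quasi-likelihood test, adjusted by Benjamini-Hochberg over every gene and transposable element tested. The same test called 42.4% of all genes in either direction and 21.2% as higher. For 5 of the 6 the log2 fold change was also at least 1. Passing the threshold with a rise of that size held for 5.53% of all genes. The median log2 fold change of the 6 was 3.49, beside -0.01 for all genes tested. The SRF KO libraries lay above all WT libraries for each of the 6, as they did for 26.2% of all genes. Without WT replicate 2 all 6 were again called, at log2 fold changes of 5.88 for Cubn, 3.14 for Amn, 3.87 for Lrp2, 1.24 for Lrpap1, 3.72 for Dab2 and 0.84 for Myo6. Together the 6 genes took 0.157% to 0.174% of gene counts in the SRF KO libraries and 0.0158% to 0.0166% in the WT libraries. In bulk RNA, more cells that express a gene and more of its RNA per cell cannot be told apart.

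**Figure D1:**
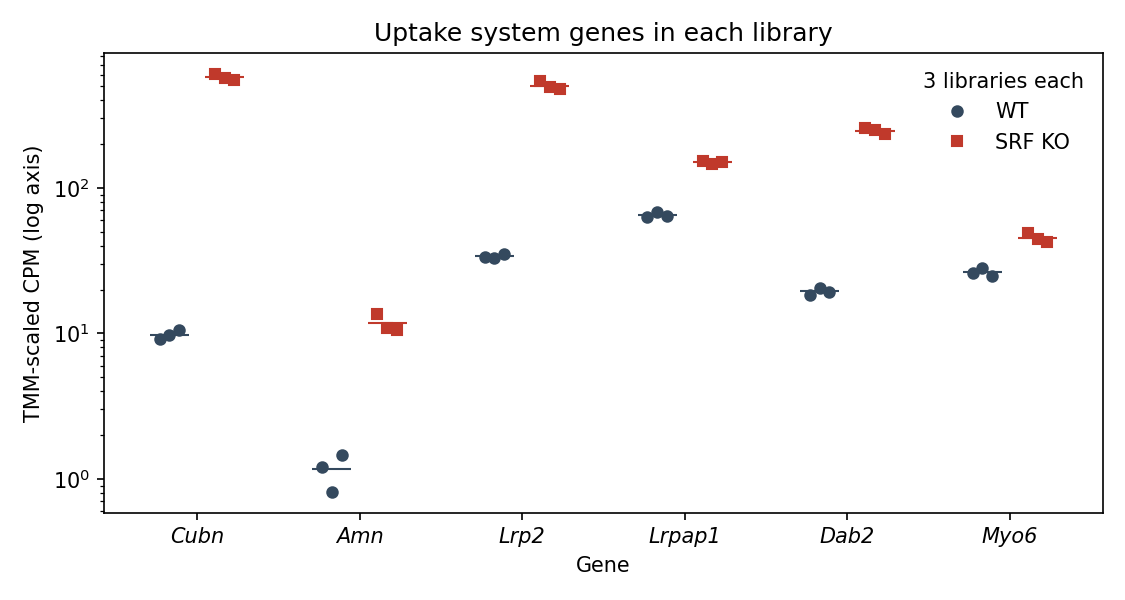
TMM-scaled CPM (log axis) of the 6 uptake genes in each of 3 WT (circles) and 3 SRF KO (squares) libraries, with a line at each group mean. The SRF KO points lie above the WT points for every gene, with the widest gap for Cubn (575.8 against 9.80 CPM) and the narrowest for Myo6 (45.6 against 26.3 CPM).

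Cubn, the receptor for intrinsic factor with its vitamin B12 and for several carrier proteins, changed most. It stood at 608, 569.9 and 549.9 CPM in SRF KO replicates 1 to 3 and at 9.20, 9.72 and 10.5 CPM in WT replicates 1 to 3. The 3 SRF KO libraries were thus close to each other and far above every WT library, which were themselves well above the floor of 3 counts, with 250 to 333 counts each. The mean was 58.7-fold higher in SRF KO, a log2 fold change of 5.88 (SE 0.07, adjusted p 4.2e-13 by edgeR). Among the 14778 genes tested, Cubn had the smallest p and the sixth largest log2 fold change.

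Amn, the membrane anchor of cubilin, had the fewest counts of the 6. The SRF KO libraries had 367, 289 and 307 and the WT libraries 44, 21 and 42, or 13.6, 10.9 and 10.6 CPM against 1.21, 0.816 and 1.46 CPM. The groups did not overlap, although the WT libraries spread more than for any other member, with an SD of 28.0% of their mean. The log2 fold change was 3.31 (SE 0.17, adjusted p 6.1e-08 by edgeR).

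Lrp2, which encodes megalin, stood at 540.4, 494 and 477 CPM in the SRF KO libraries and at 33.7, 32.8 and 35.3 CPM in the WT libraries. The groups lay far apart and the WT libraries differed little, with an SD of 3.69% of their mean. The mean was 14.8-fold higher in SRF KO, a log2 fold change of 3.89 (SE 0.06, adjusted p 4.3e-12 by edgeR), the third smallest p of all genes.

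Lrpap1, the chaperone of the lipoprotein receptor family, had the highest level per transcript length of the 6 in WT. Its level was 63.5, 68.1 and 63.8 CPM in the WT libraries and 152, 147 and 149.97 CPM in the SRF KO libraries, again without overlap. The mean was 2.30-fold higher in SRF KO, a log2 fold change of 1.20 (SE 0.05, adjusted p 8.5e-09 by edgeR). Beside it, the median log2 fold change was 1.11 for the fibroblast markers and 1.38 for the parietal endoderm markers described below. The part of either kind of cell in the rise of Lrpap1 was not tested.

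Dab2, the clathrin adaptor that binds the tails of megalin and amnionless, stood at 257, 251 and 235 CPM in SRF KO and at 18.4, 20.5 and 19.3 CPM in WT. Every SRF KO library exceeded every WT library by a wide margin. The mean was 12.8-fold higher, a log2 fold change of 3.68 (SE 0.06, adjusted p 4.5e-12 by edgeR).

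Myo6, the motor that walks toward the minus end of actin filaments, changed least. It stood at 49.2, 44.9 and 42.7 CPM in SRF KO and at 26.1, 28.1 and 24.8 CPM in WT. The groups did not overlap, but the mean was only 1.73-fold higher, a log2 fold change of 0.79 (SE 0.07, adjusted p 5.9e-06 by edgeR).

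To compare levels between genes, CPM was divided by the length of the longest coding transcript in kilobases. The annotation used for counting is not given in the sources used here, so that these lengths are an approximation. In WT the order of these per-length levels was Lrpap1 (21.8 ± 0.859), Dab2 (4.16 ± 0.225), Myo6 (3.32 ± 0.215), Lrp2 (2.20 ± 0.0811), Cubn (0.870 ± 0.0580) and Amn (0.685 ± 0.192 CPM per kb, SD, n = 3). The libraries of Cubn and Amn, the lowest pair, overlapped, and those of the other neighbours in this order did not. Within each WT library Cubn was above Amn, at 0.816 against 0.714, 0.863 against 0.480 and 0.932 against 0.861 CPM per kb. In SRF KO the order was Dab2 (53.1 ± 2.50), Cubn (51.1 ± 2.60), Lrpap1 (50.2 ± 0.894), Lrp2 (32.6 ± 2.12), Amn (6.89 ± 0.980) and Myo6 (5.75 ± 0.416 CPM per kb, SD, n = 3). The libraries of Dab2, Cubn and Lrpap1 overlapped there. Within each SRF KO library Dab2 was above Cubn, at 55.2 against 53.9, 53.7 against 50.6 and 50.3 against 48.8 CPM per kb. Lrpap1 was under Cubn in SRF KO replicates 1 and 2 and above it in replicate 3. The lowest value of Amn and the highest of Myo6 were 6.24 and 6.21 CPM per kb, from different libraries. Within each library Amn was above Myo6, at 8.02 against 6.21, 6.42 against 5.66 and 6.24 against 5.39 CPM per kb. From highest to lowest, the group means of the 6 genes spanned 31.9-fold in WT and 9.22-fold in SRF KO. By this per-length level Cubn ranked 11404th of 14244 genes with a length in WT and 1332nd in SRF KO, and Lrp2 ranked 9811th and 2207th.

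**Figure D2:**
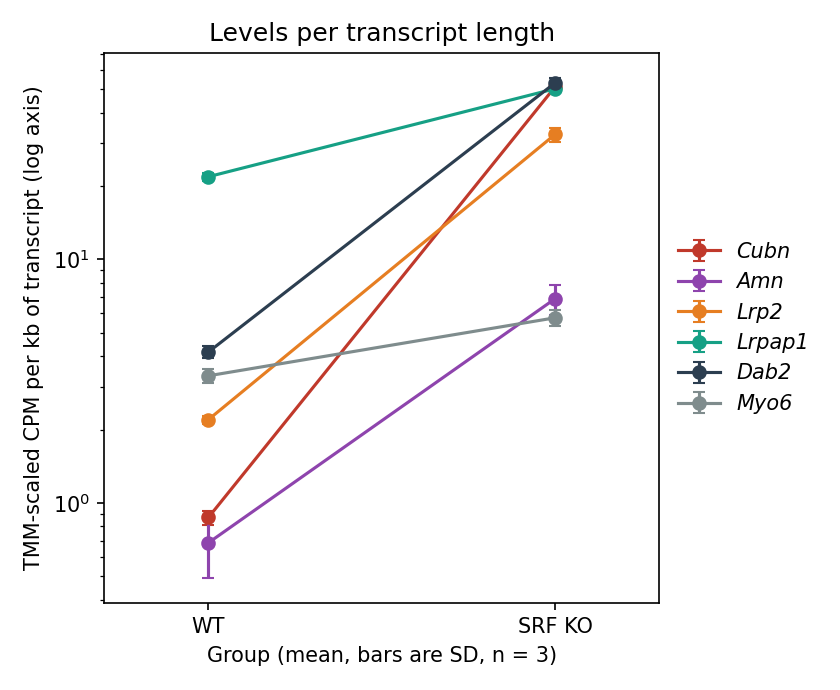
Group means of TMM-scaled CPM per kilobase of transcript (log axis) for the 6 genes in WT and SRF KO, with bars for the SD of 3 libraries. Lines of Cubn, Dab2 and Lrpap1 start at 0.870, 4.16 and 21.8 in WT and end between 50.2 and 53.1 in SRF KO, while Amn and Myo6 end at 6.89 and 5.75.

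The genes did not rise by the same amount, so ratios between them were formed within each library, which removes library scaling. Cubn over Amn, each count divided by transcript length, was 6.73, 7.88 and 7.83 in SRF KO and 1.14, 1.80 and 1.08 in WT, a 5.71-fold higher ratio of receptor to anchor. Cubn over Lrp2 was 1.54, 1.58 and 1.58 in SRF KO and 0.375, 0.406 and 0.408 in WT. In every WT library megalin RNA thus exceeded cubilin RNA per length, and in every SRF KO library the order was the opposite. Lrp2 over its chaperone Lrpap1 was 0.685, 0.649 and 0.614 in SRF KO and 0.102, 0.0931 and 0.107 in WT, a 6.45-fold difference.

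The ratio of Lrp2 to its adaptor Dab2 moved least of the 4 ratios. It was 0.634, 0.595 and 0.614 in SRF KO and 0.553, 0.484 and 0.551 in WT, a 1.16-fold difference with no overlap between groups. Each of the 4 ratios had p = 0.1 in an exact two-sided permutation test over 20 assignments of the libraries, and 0.1 after Benjamini-Hochberg adjustment over the 4. With 3 libraries in each group no smaller p exists, so that none could pass 0.05.

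**Figure D3:**
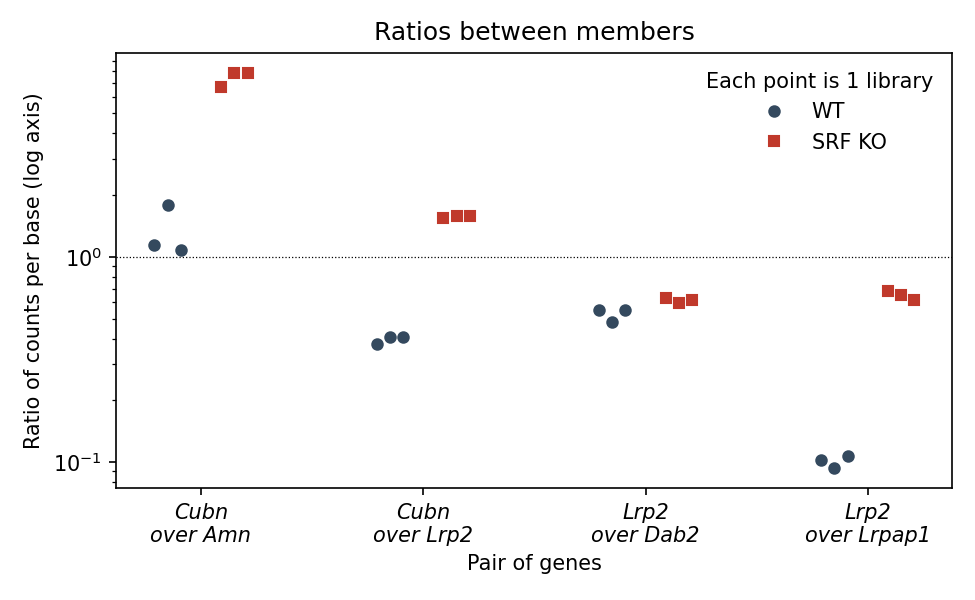
Ratios of counts per base of transcript (log axis) for 4 pairs of genes, 1 point for each of 3 WT (circles) and 3 SRF KO (squares) libraries, with a dotted line at equal levels. Cubn over Lrp2 lies under 1 in all WT libraries and above 1 in all SRF KO libraries, and Lrp2 over Dab2 differs least, 1.16-fold.

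Likeness of pattern was measured as the root mean square difference of log2 CPM, centred on the mean of each gene, over the 6 libraries. Such a measure is led by the size of the difference between the groups. Among the members, Lrp2 and Dab2 were closest to each other at 0.13, and Cubn and Myo6 farthest apart at 2.54. Among 12338 other genes averaging 50 counts or more, the nearest to Lrp2 were Gata4 (0.09), Amot (0.13) and Gata6 (0.14), and those to Dab2 were Amot (0.05), Gata6 (0.10) and Dgkk (0.11). Gata4 and Gata6 encode transcription factors of the primitive endoderm. The nearest to Cubn were Srgn (0.24), Aqp8 (0.24) and Habp2 (0.37), and those to Amn were Sox17 (0.22), Ctsh (0.22) and Col4a1 (0.23). Lrpap1 was instead nearest to Phldb2 (0.03), LOC105246506 (0.04) and Prrx1 (0.05), the last a gene of the fibroblast list. These neighbours depend on how low counts are treated. With log2 of CPM plus 0.5, the measure tried first, 6 of the 15 neighbours were the same: Srgn for Cubn, Ctsh for Amn, Gata4 for Lrp2, Phldb2 for Lrpap1, and Amot and Gata6 for Dab2. With that measure the nearest to Lrp2 after Gata4 were Aqp8 and Nxf7, in place of Amot and Gata6.

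Neighbouring genes were compared to see whether the rises extended along the chromosome. Of 12 flanking genes, the nearest tested protein-coding gene on each side of each member, 2 passed the threshold, or 16.7%, beside 42.4% of all genes. Their distances ran from 3942 bp (Traf3 from Amn) to 1316562 bp (Htr1b from Myo6), and Spc25 lay 218146 bp from Lrp2. Values at the longer distances do not address sequence close to a member. Rsu1, 4923 bp from Cubn, had a log2 fold change of 0.00 (SE 0.06), and Trdmt1 on the other side one of 0.21 (SE 0.10, adjusted p 0.97 and 0.102 by edgeR). Around Lrp2, Spc25 was at -0.09 (SE 0.09) and Bbs5 at -0.06 (SE 0.10). Around Amn, Traf3 was at 0.17 (SE 0.07) and Cdc42bpb at -0.06 (SE 0.05). The flanking genes that rose were Fyb beside Dab2, by 0.76 (SE 0.18), and Htr1b, more than a megabase from Myo6, by 0.96 (SE 0.34) to 0.698 CPM. The call of Htr1b was lost under DESeq2 (0.95) and when WT replicate 1 (0.65), SRF KO replicate 1 (0.95) or SRF KO replicate 2 (0.78) was left out. Trdmt1 passed the threshold without WT replicate 2, at 0.27, and with a replicate block, at 0.21 (adjusted p 0.044 by edgeR).

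**Figure D4:**
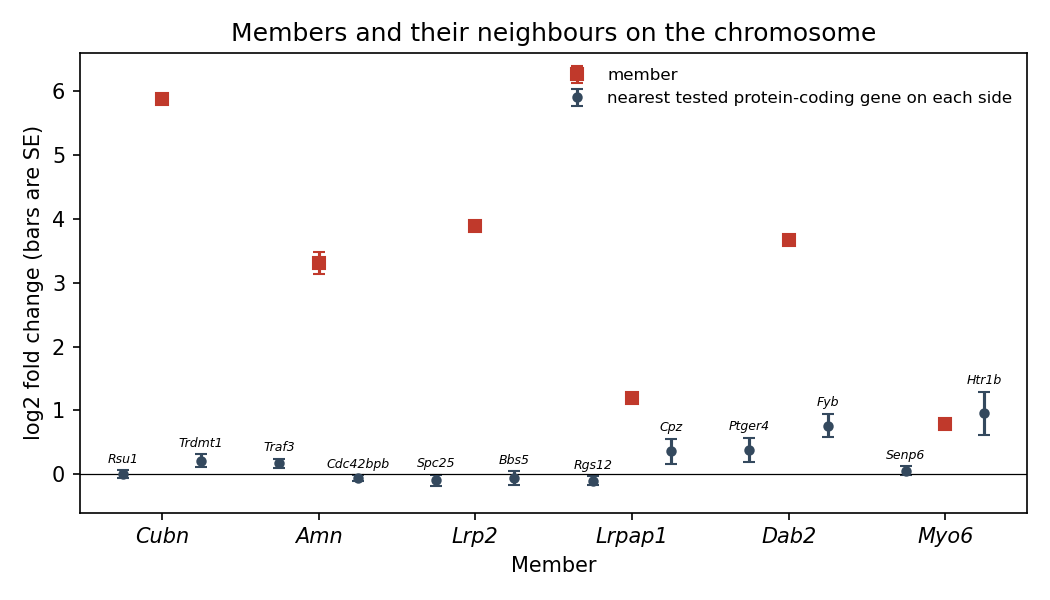
Log2 fold changes (SRF KO over WT, bars are SE) of the 6 members (squares) and of the nearest tested protein-coding gene on each side (circles). The 12 flanking genes lie between -0.10 and 0.96, while 4 of the members lie above 3.

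The wider pathway was described with 6 lists of ligands, other receptors, coat, endosome, myosin and apical genes. Of 104 listed genes, 94 were tested, and SRF KO was higher for 25 and lower for 25, with a median log2 fold change of 0.02. This share of 53.2% called stands beside 42.4% of all genes. Calls on these lists thus ran in both directions.

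Of 16 genes for known ligands, 11 were tested, 7 were higher and 2 lower, with a median log2 fold change of 0.75. Among those tested 81.8% were called, beside 42.4% of all genes. Apob, the protein of large lipoproteins, rose from 1.70 ± 0.371 to 30.4 ± 3.05 CPM (SD, n = 3), or by 4.16 on the log2 scale. Clu, a secreted chaperone, rose by 1.95 on the log2 scale, from 11.4 ± 0.412 to 43.97 ± 2.73 CPM. Ttr, the carrier of thyroid hormone and retinol-binding protein, had 52, 35 and 51 counts in SRF KO and 0 in every WT library, at least 16.5-fold higher against a floor of 3 counts per library (adjusted p 4.7e-06 by edgeR). The carriers of vitamin B12 (Tcn2) and iron (Trf) had log2 fold changes of 0.75 and 0.70, both past the threshold, as was Gc, the carrier of vitamin D, with 3.23 CPM in SRF KO against 1.60 CPM in WT. Apoe fell by 0.28 and Mt2, a metallothionein, by 0.26. The call of Mt2 was lost without SRF KO replicate 1 (-0.26), SRF KO replicate 3 (-0.22), WT replicate 1 (-0.20) or WT replicate 3 (-0.21). Gif, which encodes intrinsic factor, had 0 counts in all libraries, which allows up to 0.117 CPM in 1 library.

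Other genes of the lipoprotein receptor family had smaller fold changes than Lrp2. Of 12, 11 were tested, 5 were higher and 2 lower, their median log2 fold change being 0.01, and none reaching 1 in either direction. Those called made up 63.6%, against 42.4% of all genes. Vldlr, Lrp1 and Lrp12 rose by 0.63, 0.55 and 0.48, and Lrp4 and Sorl1 fell by 0.44 and 0.33 on the log2 scale. Lrp1, the relative of megalin that is common in fibroblasts, stood at 244 ± 22.3 CPM in SRF KO, against 167 ± 20.8 CPM in WT (SD, n = 3).

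The general machinery of clathrin uptake was tested in full. Of 20 coat and adaptor genes, 2 were higher and 7 lower, their median log2 fold change being -0.03, and no change as large as 1. This 45.0% called was close to the 42.4% of all genes. The clathrin light chain Cltb rose by 0.63, and Dab1, the neuronal relative of Dab2, rose by 0.99 on the log2 scale, to 10.6 ± 1.25 CPM (SD, n = 3). Numbl, Fcho2 and the AP-2 subunit Ap2b1 fell by 0.42, 0.32 and 0.18. The clathrin heavy chain Cltc was at 0.02 (SE 0.06, adjusted p 0.85 by edgeR).

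Of 20 endosome and recycling genes, 2 were higher and 4 lower, a smaller share called (30.0%) than over all genes. Clcn5, the endosomal chloride and proton exchanger whose loss impairs uptake by megalin and cubilin in the kidney, stood at 24.7, 25.6 and 24.5 CPM in SRF KO and at 15.5, 15.1 and 15.7 CPM in WT. The groups did not overlap, and the log2 fold change was 0.69 (SE 0.07, adjusted p 8.1e-06 by edgeR). Rab5c rose by 0.25, and Rab25, Appl1 and Rab5b fell by 0.75, 0.25 and 0.20 on the log2 scale. The call of Rab5c was lost without SRF KO replicate 3 (0.23) and that of Rab5b without SRF KO replicate 1 (-0.19).

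Of 19 other unconventional myosins, 18 were tested, 4 were higher and 5 lower, with a median log2 fold change of 0.05. The share called was 50%, near the 42.4% of all genes. Myo5b, a motor of recycling endosomes in epithelia, stood at 10.7, 9.41 and 9.30 CPM in SRF KO and at 1.79, 2.22 and 2.54 CPM in WT. Its log2 fold change of 2.18 (SE 0.13, adjusted p 2.4e-07 by edgeR) stands beside 0.79 for Myo6. Myo7a and Myo1g rose by 1.02 and 0.68, and Myo10, a motor of filopodia, Myo5c and Myo18a fell by 0.72, 0.42 and 0.25 on the log2 scale.

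Of 17 microvillus and apical scaffold genes, 14 were tested, with 5 higher and 5 lower. That is 71.4% called, beside 42.4% of all genes. Dpp4, a peptidase of the cell surface, rose by 1.04, the actin regulator Eps8 by 0.63 and the membrane linker Msn by 0.48 on the log2 scale. The microvillus actin bundlers Espn and Pls1 fell by 1.21 and 0.40, and the apical scaffold Pdzk1 by 1.62, from 2.61 ± 0.277 to 0.846 ± 0.254 CPM (SD, n = 3). Vil1, which encodes the brush border protein villin, averaged 1.55 CPM without and 1.51 CPM with SRF, with a log2 fold change of 0.02 (SE 0.20, adjusted p 0.939 by edgeR).

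**Figure D5:**
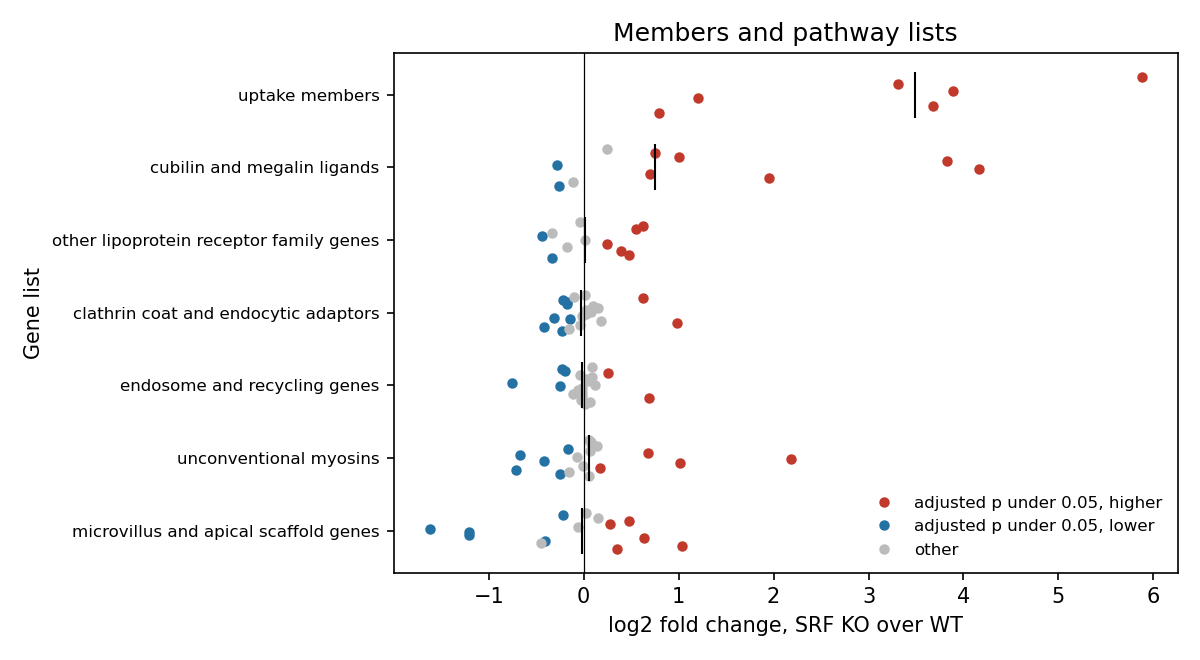
Log2 fold changes (SRF KO over WT) of tested genes in the 6-gene uptake system and in 6 pathway lists, 1 point per gene, coloured by call, with a black tick at the median of each list. Ttr, at 0 counts in WT, is not drawn but enters its list's median; the uptake genes have a median of 3.49, and the 5 lists other than the ligands have medians between -0.03 and 0.05.

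Markers of tissues that use this system, and of parietal and primitive endoderm, were measured beside it, with 21.2% of all genes called higher for comparison. Of 11 tested visceral endoderm markers, 10 were higher, with a summed level of 75.8 to 79.5 CPM in SRF KO, against 30.2 to 32.5 CPM in WT. The other, Rhox5, fell by 0.22 on the log2 scale and made up 23.7 CPM of this sum in SRF KO and 27.6 CPM of it in WT, and its call was lost without SRF KO replicate 3 (-0.18). Hnf4a, a transcription factor of that tissue, rose by 5.54 on the log2 scale, to 4.84 CPM. It had only 2 to 5 counts in the WT libraries, and its log2 fold change ran from 5.18 to 6.20 with 1 library left out. Dkk1, a secreted Wnt antagonist, rose by 5.02 to 13.8 CPM, from 6 to 17 counts in the WT libraries. Afp and Apoa4, secreted products of visceral endoderm, did not pass the filter, with 1 to 3 and 4 to 7 counts in the SRF KO libraries. All 11 parietal endoderm markers were higher, with a summed level of 3247 to 3466 CPM in SRF KO against 1061 to 1119 CPM in WT. In SRF KO, Lamc1, Sparc, Col4a1, Lamb1 and Col4a2 averaged 912, 760, 740, 467 and 397 CPM, which was most of that sum. In WT they averaged 534, 218, 72.0, 179 and 50.6 CPM, again most of it. The basement membrane genes Col4a1, Col4a2 and Sparc rose by 3.36, 2.97 and 1.80 on the log2 scale. All 5 primitive endoderm genes were higher, with sums of 196 to 208 CPM in SRF KO, against 15.9 to 17.5 CPM in WT. Gata4 rose by 3.95 and Gata6 by 3.66 on the log2 scale, beside 3.89 for Lrp2 and 3.68 for Dab2. None of the 8 markers of proximal tubule and enterocytes passed the filter, and their summed level was at most 0.553 CPM in SRF KO, against 0.802 CPM in WT. The part of endoderm-like cells in the rise of the uptake genes was not tested.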

How the data were processed

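Bulk RNA of 3 SRF KO and 3 WT iPSC libraries was analysed, 1 table column per sample, matched by name. The deposited table holds raw counts of reads per gene and per transposable element subfamily. Per the labels' protocols, 150 bp paired reads were cleaned of adaptor, low-quality and empty reads. The submitters' processing notes name mm10 and DESeq2. The aligner, counter, annotation and use of strand are not given in the sources used here.

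One fit covered every entry, in R 4.3.3 with edgeR 4.0.16 (filterByExpr with a minimum count of 10, TMM scaling, quasi-likelihood test, Benjamini-Hochberg adjustment over 15611 entries, threshold 0.05). The SE is the absolute log2 fold change divided by the square root of F. Likeness used edgeR's log2 CPM with a prior count of 2, chosen after a first measure, log2 of CPM plus 0.5, was seen to draw genes of low level together. The naming rule itself had set no pseudocount. The floor of 3 counts covers counting error only. Within-group pairs of libraries had a chi-square per degree of freedom of 1.83 to 15.5, so that each library counted as 1 replicate. Data were simulated for SRF KO against WT over 15611 entries. In them edgeR recovered 96% of 100 changes of 1 and 100% of 100 changes of 2 on the log2 scale, with 7 false calls. Only those entries were changed, far fewer than were called in the data, so that these rates may not hold for the data.

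The members and lists were chosen with earlier results of these data known. Flanking genes and promoter motifs were added after the values of the members were seen, and the motifs with the promoter sequences in view. The GATA consensus replaced its single form AGATAA after the matches were seen. The rule for naming genes took the members, Srf, up to 3 genes per list and direction with the smallest p among those called, and the 3 genes nearest in pattern to each member called with a log2 fold change of 1 or more in size. Genes named outside it (Tcn2, Trf, Gc, Gif, Cltc, Vil1, Afp, Apoa4, Lamb1 and Lamc1) were chosen after their values were seen. Some genes of the lists are counted but not reported by name here. Alternatives were DESeq2 1.42.0, RLE size factors, no filter, gene entries alone, a replicate block, a threshold of 0.01 and leaving out each library.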

Additional observations from a re-analysis of the deposited data

How the results depend on the processing

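All 6 uptake genes were called higher under each of the 12 alternatives. Leaving out 1 library at a time gave log2 fold changes of 5.83 to 5.93 for Cubn, 3.14 (without WT replicate 2) to 3.48 (without WT replicate 3) for Amn, 3.84 to 3.93 for Lrp2, 1.18 to 1.24 for Lrpap1, 3.64 to 3.72 for Dab2 and 0.73 to 0.84 for Myo6. The largest edgeR or DESeq2 adjusted p over their alternatives was 6.7e-05, for Myo6. Pathway genes called were between 22 and 31 higher and between 17 and 28 lower. Over all genes, those lower fell to 2013 at a threshold of 0.01, which lowers counts by construction. The difference in log2 Lrp2 over Dab2 was 0.15 without WT replicate 2 and 0.25 without WT replicate 1. Deviations from the group means correlated at 0.042, 0.203 and 0.096 within replicate numbers. Across numbers they correlated at -0.189 to 0.109. These ranges overlap, so that pairing by replicate number is not settled. With a replicate block the log2 fold changes were 5.88 for Cubn, 3.33 for Amn, 3.89 for Lrp2, 1.20 for Lrpap1, 3.68 for Dab2 and 0.79 for Myo6. The block gave 3659 genes higher and 3853 lower, beside 3132 and 3141 without it. No call of a member changed, while Trdmt1, beside Cubn, passed the threshold (0.21). Depth limits Amn most, with 21 counts in WT replicate 2. Among uncalled genes, the sign of the log2 fold change turned for some libraries left out, with ranges of -0.021 to 0.042 for Rsu1, -0.16 to 0.030 for Spc25, -0.028 to 0.088 for Cltc and -0.19 to 0.14 for Vil1, none called in these fits.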
